A study of Mus musculus with 6 samples.

Results

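The genes described here are 10 genes of the T cells that lie within the intestinal lining: the granzymes Gzma and Gzmb, the T cell receptor subunits Cd3e, Cd3d and Cd3g, the coreceptor chains Cd8a and Cd8b1, the kinase Lck, the adhesion receptor Cd2 and the integrin chain Itgae. They were taken by name, with earlier results of these data known, and all 10 were found among the 21950 genes listed in both deposited columns. The tissue was ileum of C57BL/6 mice aged 24 weeks. One group was wild type (3 mice). The other was TLR4ΔIEC (3 mice), in which Toll-like receptor 4 was conditionally knocked out in the intestinal epithelium. The promoter driving that deletion is not given in the sources used here, and cells outside the epithelium keep the gene. Each mouse gave 1 barcoded library of RNA depleted of ribosomal RNA, but what was deposited is a single column of average coverage for each genotype, so all values below belong to a pool of 3 mice. The spread between mice is therefore unknown, and nothing could be tested. The pools were sequenced separately, so genotype and sequencing pool cannot be told apart.

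Intraepithelial lymphocytes are T cells that sit between the absorptive cells of the gut lining, most of them carrying CD8. Their T cell receptor binds antigen but signals through the CD3 chains, whose tails are phosphorylated by Lck, a kinase brought to the receptor by CD8 or CD4. Granzymes are serine proteases stored in granules and released into target cells through pores made by perforin. Itgae encodes the alpha chain of the integrin CD103, which binds E-cadherin on epithelial cells and holds lymphocytes in the epithelium.

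Both granzymes, all 3 CD3 chains, both CD8 chains, Lck and Itgae had higher coverage in the TLR4ΔIEC pool, and Cd2 did not. Levels are given as coverage, the mean number of reads over each base of a transcript, and as units, which are coverage after both columns were put on 1 scale with a mean total of 1000000. Both are per base, so levels of different genes can be set side by side. Log2 ratios are of TLR4ΔIEC over wild type, on values in units plus 1, which understates the differences of weakly covered genes. Counts of genes at 2-fold use these log2 ratios, whereas folds printed for a gene are of units without the added 1. In whole tissue, a larger number of cells of a type and more RNA per cell cannot be told apart.

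The stretches of DNA before the starts of Gzma, of Gzmb and of the farther upstream start of Lck are shown because Gzma and Lck had the 2 highest ratios of the 10 genes and Gzmb is the other granzyme. Each runs over the 250 bases before the start, 5′ to 3′ on the gene's own strand, from RefSeq on GRCm38.p6. Capitals mark letters that match one of 6 short words known as binding sequences of lymphocyte and general transcription factors, on either strand. They are TGTGGT (RUNX), AGGAAG (ETS), TGANTCA (AP-1), TGACGTCA (CRE), AGGTGTGA (T-box) and CAGGTG (E-box).
Gzma, chr13:113100982-113101231, minus strand: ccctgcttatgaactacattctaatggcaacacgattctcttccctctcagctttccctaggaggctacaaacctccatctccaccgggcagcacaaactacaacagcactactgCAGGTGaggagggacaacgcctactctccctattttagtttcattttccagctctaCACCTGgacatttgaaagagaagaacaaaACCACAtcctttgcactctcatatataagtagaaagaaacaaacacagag
Gzmb, chr14:56262335-56262584, minus strand: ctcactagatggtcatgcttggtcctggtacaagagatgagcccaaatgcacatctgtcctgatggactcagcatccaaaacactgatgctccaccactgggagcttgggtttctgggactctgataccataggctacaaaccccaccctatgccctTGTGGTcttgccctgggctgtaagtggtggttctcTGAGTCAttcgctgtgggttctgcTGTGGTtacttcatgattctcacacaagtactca
Lck, chr4:129573642-129573891, minus strand: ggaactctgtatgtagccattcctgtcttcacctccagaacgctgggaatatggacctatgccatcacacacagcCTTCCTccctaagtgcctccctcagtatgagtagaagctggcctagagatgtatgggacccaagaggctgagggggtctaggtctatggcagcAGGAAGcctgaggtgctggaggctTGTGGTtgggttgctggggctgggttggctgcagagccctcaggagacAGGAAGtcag
These 3 were the windows with the RUNX word among the 8 windows found for 7 of the 10 genes (Lck has 2 starts in the table). Cd8b1, Cd2 and Itgae had no entry. Over 32817 promoter windows of the same length, 4608 held the RUNX word. In Gzma it lay on the opposite strand, starting 50 bases before the gene. In Gzmb it occurred at 93 and 34 bases before the start, on both sides of an AP-1 word at 58 bases (6.75% of all windows hold that word). That RefSeq start of Gzmb, 56262334, lies upstream of the GENCODE start of the gene, 56262260, so these distances hold for the RefSeq start only. The E-box word, found in 17.2% of all windows, occurred in 4 of the 8, among them Gzma, Cd3g and Cd3d, and the ETS word, found in 29.5%, occurred in 4, those of Cd3d and Cd3e and both of Lck. The CRE and T-box words (1.55% and 1.12% of all windows) were in 0 of the 8. None of the 6 words overlapped another in the 3 sequences shown. A match is a match of letters only, and the measurements here say nothing of binding.

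Gzma (chromosome 13, 113093825 to 113100981, mm10, minus strand) was the most abundant of the 10 genes in both pools and had the highest ratio. It encodes granzyme A, a protease with trypsin-like specificity. Its coverage was 39.3 in wild type and 140.3 in TLR4ΔIEC, or 57.6 and 196 units, 3.40-fold higher in the TLR4ΔIEC pool (log2 ratio 1.75). Those averages rested on 34508 and 123173 bases of reads over the same length of 878 bases, which is the length of its annotated transcript. Among the 528 genes whose mean level lay within 1.5-fold of that of Gzma, 0.379% had a ratio as high or higher, Gzma itself included.

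Gzmb (chromosome 14, 56258838 to 56262260, minus strand) encodes granzyme B, which cleaves after aspartate and activates caspases in target cells. Its coverage was 7.71 in wild type and 13.7 in TLR4ΔIEC (11.3 and 19.1 units, log2 ratio 0.71), resting on 10918 and 19393 bases of reads over 1416 bases. The higher level of Gzmb was thus in the same direction as that of Gzma and under 2-fold. Among 2788 genes of similar level, 3.05% had a ratio at least as high. The level of Gzma was 5.10 times that of Gzmb in wild type and 10.2 times in TLR4ΔIEC.

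Other granzymes were weak. Gzmk, a granzyme of memory T cells, was lower in the TLR4ΔIEC pool (3.25 and 2.17 units, log2 ratio -0.42), and Gzmm, found mostly in natural killer and innate-like T cells, was nearly level (1.13 and 0.985 units, -0.10). Gzmc, Gzmd, Gzme and Gzmg, which neighbour Gzmb on chromosome 14, stood between 0.0708 and 0.219 units in both pools. Gzmf was listed in the wild type column alone, at a coverage of 0.0485. The granzymes of that cluster are close copies of each other, so their values one by one are uncertain.

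**Figure D1:**
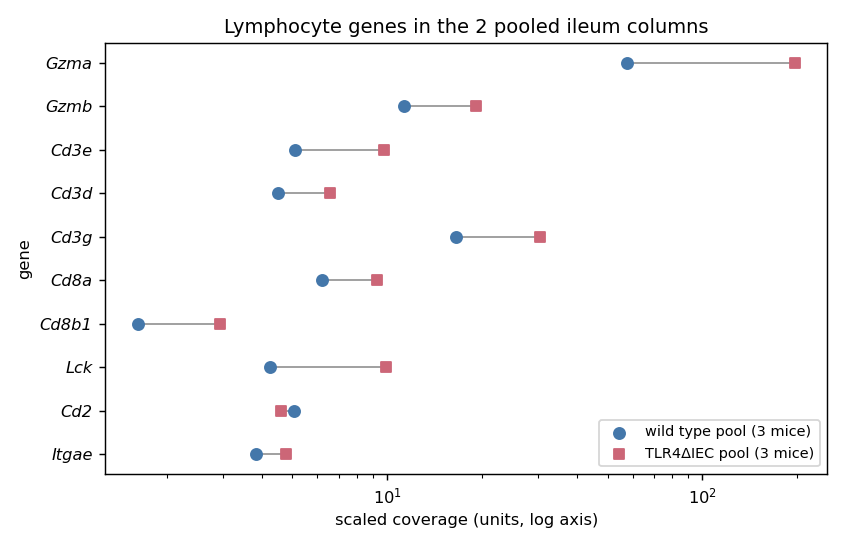
Scaled coverage (units, log axis) of the 10 genes in the wild type pool (circles) and the TLR4ΔIEC pool (squares), each 1 value from 3 mice with no error bar. The squares lie to the right of the circles for 9 genes, farthest for Gzma (57.6 and 196 units), and to the left for Cd2 (5.07 and 4.59 units).

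The 3 CD3 genes lie together on chromosome 9. Cd3g (44969572 to 44980431, minus strand) and Cd3d (44981786 to 44987339, plus strand) are read away from each other from starts 1355 bases apart, and Cd3e (44998740 to 45009627, minus strand) follows. Each codes for a chain that pairs within the receptor complex, epsilon with either delta or gamma. Cd3g had 11.3 reads per base in wild type and 21.9 in TLR4ΔIEC (16.5 and 30.6 units, log2 ratio 0.85). Cd3e had 3.48 and 6.99 (5.11 and 9.77 units, 0.82), resting on 4914 and 9867 bases of reads over 1411 bases in both pools. Cd3d had 3.06 and 4.72 (4.49 and 6.60 units, 0.47). All 3 were higher in the TLR4ΔIEC pool, by 1.85-fold for Cd3g, 1.91-fold for Cd3e and 1.47-fold for Cd3d.

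Cd3g stood above its partners in both pools, at 3.24 times Cd3e in wild type and 3.13 times in TLR4ΔIEC, and at 3.69 times Cd3d in wild type and 4.64 times in TLR4ΔIEC, so its distance to Cd3e was nearly the same and that to Cd3d was wider. Among genes of similar level, ratios at least as high were held by 1.13% of 2206 genes for Cd3g, 2.71% of 3170 for Cd3e and 13.99% of 3038 for Cd3d. Cd3e overlaps an unnamed antisense gene model, and whether coverage was computed by strand is not stated in the sources used here. The geometric mean of the 3 chains went from 7.24 units in the wild type pool to 12.5 in the TLR4ΔIEC pool, 1.73-fold higher.

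Lck (chromosome 4, 129548344 to 129573641, minus strand) was the other gene past 2-fold. Its coverage was 2.89 in wild type and 7.08 in TLR4ΔIEC (4.24 and 9.90 units, log2 ratio 1.06, 2.33-fold). Of 3147 genes of similar level, 1.08% had a ratio at least as high. With a pseudocount of 5 units its log2 ratio was 0.69, under 2-fold.

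The CD8 genes are neighbours on chromosome 6, Cd8b1 from 71322788 to 71337494 and Cd8a from 71373427 to 71379173, both on the plus strand. Conventional CD8 T cells carry a heterodimer of alpha and beta chains, whereas many intraepithelial lymphocytes carry a homodimer of alpha chains. Cd8a had 4.24 reads per base in wild type and 6.62 in TLR4ΔIEC (6.22 and 9.26 units, log2 ratio 0.51). Cd8b1 had 1.10 and 2.11 (1.62 and 2.95 units, 0.59). Both chains were higher in the TLR4ΔIEC pool by similar ratios, and the beta chain stayed the weaker: Cd8b1 was at 0.260 of the level of Cd8a in wild type and at 0.319 in TLR4ΔIEC. Among genes of similar level, 10.5% of 3197 had a ratio at least that of Cd8a and 9.32% of 2308 at least that of Cd8b1. The difference between the log2 ratios of Cd8b1 and Cd8a was 0.09. It was 0.26 with a pseudocount of 0.1 units and -0.08 with 5, an added value above the level of Cd8b1 in both pools. With 1 pool per group, the direction of any shift between the chains was not settled. Cd4, the coreceptor of helper T cells, stood at 2.87 and 3.41 units (0.19), and Cd8a was 2.16 times Cd4 in wild type and 2.71 times in TLR4ΔIEC.

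The 2 surface receptors of adhesion differed least. Itgae (chromosome 11, 73090583 to 73147446, plus strand) had 2.62 reads per base in wild type and 3.42 in TLR4ΔIEC (3.83 and 4.78 units, log2 ratio 0.26). It overlaps the kinase gene Haspin on the opposite strand. Cd2 (chromosome 3, 101275899 to 101287939, minus strand), which binds CD48 on other cells, had a coverage of 3.46 and 3.28 (5.07 and 4.59 units, -0.12), with 3959 and 3754 bases of reads over 1144 bases. Of genes at similar levels, 32.3% had a ratio at least that of Itgae and 70.4% at least that of Cd2, so neither stood apart. Cd48, the ligand of Cd2, was at 5.65 and 10.8 units (0.82).

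Of the 10 genes, 9 lay above 0 on the log2 scale, 2 of them 2-fold or more, and 0 were lower by 2-fold. As background, 1.29% of all genes averaging 5 units or more were higher in the TLR4ΔIEC pool by 2-fold or more, and 2.79% were lower by that much. Because 7 of the 10 reached that level and Cd8b1, Cd2 and Itgae did not, the background was also taken over genes of at least 1 unit, which all 10 exceeded, and was 1.53% higher and 2.83% lower. The median log2 ratio of the 10 genes was 0.65, against 0.03 over the 8891 genes of at least 5 units. Of the 10696 genes between the lowest and highest mean level of the 10, 54.5% had a ratio above 0. Because the 10 genes were chosen with earlier results of these data known, these shares describe them and test nothing.

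**Figure D2:**
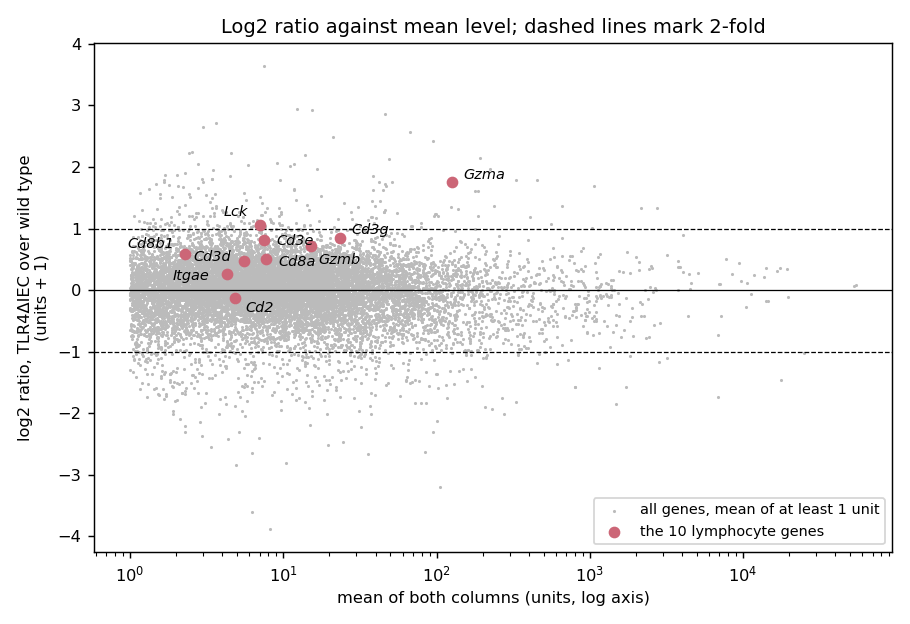
Log2 ratio (TLR4ΔIEC over wild type, units plus 1) against the mean of both columns (units, log axis) for genes averaging 1 unit or more (grey) and the 10 lymphocyte genes (red); dashed lines mark 2-fold. Gzma (1.75) and Lck (1.06) lie above the upper dashed line, 7 genes lie between it and 0, and Cd2 lies at -0.12.

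The ratios of these genes to the CD3 chains of the same pool show which of them differed by more or less than the T cell receptor did. The level of Gzma was 7.96 times the geometric mean of the CD3 chains in wild type and 15.6 times in TLR4ΔIEC. Gzmb was at 1.56 times that mean in wild type and 1.53 times in TLR4ΔIEC, nearly unchanged relative to CD3. On the log2 scale used above, the ratio of Gzma exceeded the mean of the 3 CD3 ratios by 1.04, and that of Gzmb differed from it by less than 0.01 (-0.0015). Relative to CD3, Lck was higher in TLR4ΔIEC (0.586 and 0.789), Cd8a was lower (0.859 and 0.738), and Cd8b1 was nearly level (0.224 and 0.235). Itgae (0.530 and 0.381) and Cd2 (0.701 and 0.366) were lower relative to CD3. These are ratios within a pool and show unequal differences, not that any gene was constant.

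**Figure D3:**
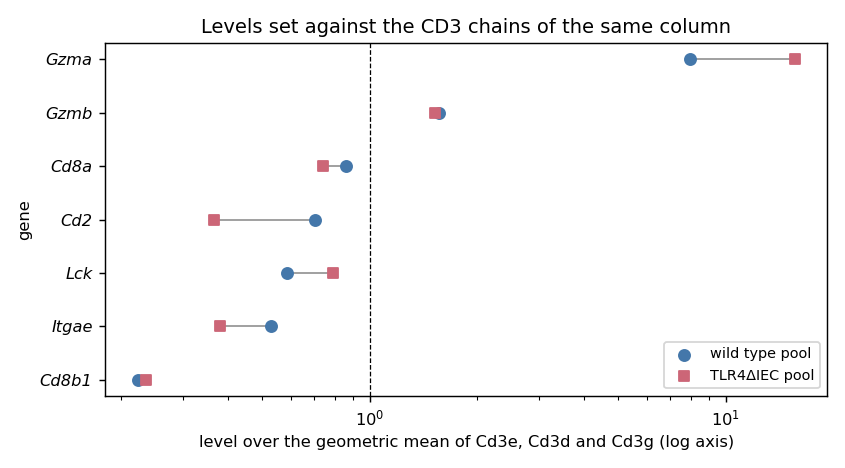
Level of 7 genes divided by the geometric mean of Cd3e, Cd3d and Cd3g in the same pool (log axis), for wild type (circles) and TLR4ΔIEC (squares), with no error bars. Gzma moves from 7.96 to 15.6, Gzmb stays near 1.5 (1.56 and 1.53), and Cd2 moves from 0.701 to 0.366.

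The other genes of T cell receptor signalling were mostly above 0 by small ratios. All 25 listed genes were found, 21 had a ratio above 0 and 4 below, 0 were higher by 2-fold and 1 was lower by 2-fold, against 1.01% and 1.80% of all genes without a filter on level. Their median log2 ratio was 0.33. Most were weakly covered, and 4 reached a mean of 5 units: Csk, the kinase that restrains Lck (21.1 and 17.8 units, -0.23), the phosphatase Ptprc (CD45, 7.68 and 10.1 units, 0.35), the adaptor Lat (6.06 and 7.71 units, 0.30) and the phospholipase Plcg1 (5.38 and 4.86 units, -0.12), which overlaps Zhx3 on the opposite strand. The partners of the 10 genes singled out after their values were seen were Zap70, the kinase that docks on phosphorylated CD3 (2.56 and 4.86 units, 0.72), Cd247, the zeta chain (0.619 and 1.51 units, 0.63), and Fyn, a kinase related to Lck (3.61 and 5.87 units, 0.57). The gene past 2-fold lower was Sh2d1a, an adaptor of SLAM family receptors (2.24 and 0.468 units, -1.14). In units without the added 1, Sh2d1a was 4.78-fold lower, Cd247 was 2.44-fold higher and Trat1, named after its value was seen, 2.32-fold higher. Of the T cell receptor alpha, beta, gamma and delta chains, 11 symbols were looked for and 0 were found in either column, so those chains were not analysed here. Of 4 other genes tied to gamma-delta and innate-like T cells, Cd163l1 was above 0 (0.37), and Sox13 (-0.38), Zbtb16 (-0.71) and Il23r (-0.02) were below, with a median of -0.20.

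Effector genes of the granule pathway were split in direction, all by less than 2-fold on values in units plus 1. Of 19 measured cytotoxic effector genes besides Gzma and Gzmb, 11 were above 0 and 8 below, 0 passed 2-fold in either direction, and the median was 0.38. The best covered were Lamp1, a membrane protein of lysosomes and granules that most cells express (179 and 157 units, -0.18), the protease Ctsc, which activates granzymes (37.5 and 54.7 units, 0.53), the granule proteoglycan Srgn (28.2 and 36.8 units, 0.38) and Rab27a, which moves granules to the membrane (8.88 and 7.55 units, -0.21). Perforin (Prf1), picked with its value known, was weakly covered in both pools (0.748 and 1.59 units, 0.56). In units without the added 1, Prf1 was 2.12-fold higher and Ifng, named likewise, 3.70-fold higher, and no gene of the list was 2-fold lower.

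Among genes of lymphocyte homing, the chemokine and its receptor went in opposite directions. The chemokine Ccl25, made by small intestinal epithelium, was at 519.6 and 293 units (-0.83). Its receptor Ccr9, picked with its value known, was at 2.91 and 5.97 units (0.84). Ccr9 was 2.05-fold higher in units, and under 2-fold with 1 added. Of the 17 genes in that list, 10 were above 0 and 7 below, with a median of 0.14, 0 higher by 2-fold and 1 lower by 2-fold. That gene was Xcl1, a chemokine secreted by activated CD8 T cells and natural killer cells (12.4 and 5.43 units, -1.06). Ccl5, a chemokine stored by cytotoxic lymphocytes, was at 52.2 and 84.0 units (0.68), and Cdh1, the E-cadherin that CD103 binds, was at 126 and 158 units (0.33). The beta chain that pairs with Itgae, Itgb7, also picked with its value known, was at 6.61 and 10.1 units (0.54).

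Receptors and regulators of intraepithelial lymphocytes were split. Of 22 genes, 12 were above 0 and 10 below, with a median of 0.07, 1 higher by 2-fold and 1 lower by 2-fold. Cd7, a surface receptor of T and natural killer cells, was 2.29-fold higher in the TLR4ΔIEC pool (17.1 and 39.2 units, 1.15). Il15, the cytokine that sustains these lymphocytes, was lower (11.6 and 4.46 units, -1.21). Tmigd1, an adhesion molecule mostly of the epithelium itself, was at 521 and 271 units (-0.94), the transcriptional regulator Id2 at 70.4 and 47.8 (-0.55) and Stat5a, which acts downstream of the interleukin 15 receptor and overlaps Stat3, at 26.9 and 17.0 (-0.63). The last 3 are expressed in epithelial and other cells as well.

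**Figure D4:**
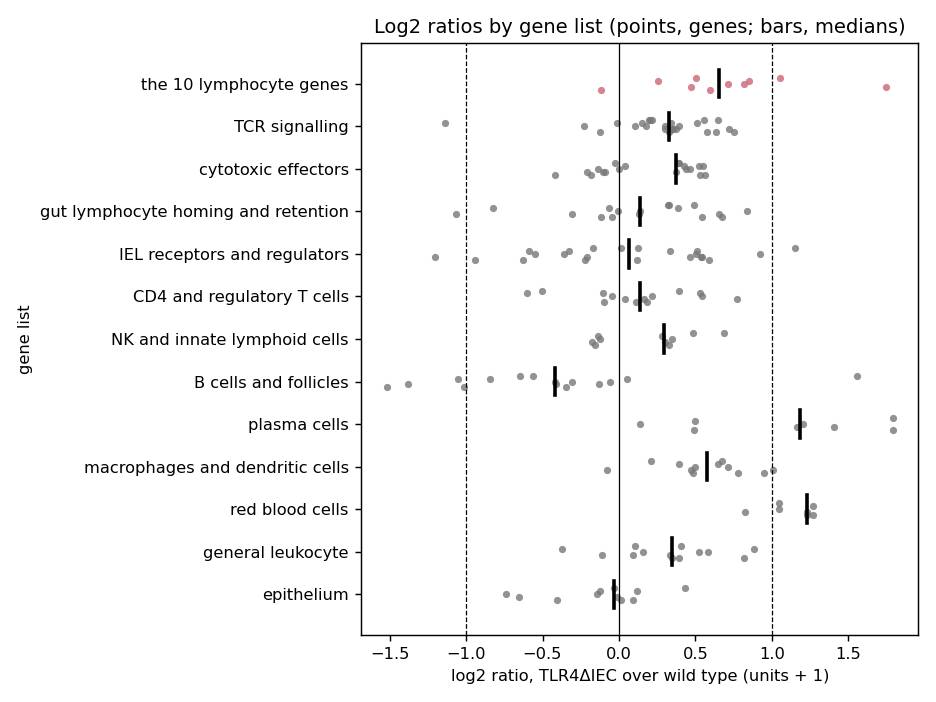
Log2 ratios (TLR4ΔIEC over wild type, units plus 1) of the genes in each list (points) with the list's median (bars) and dashed lines at 2-fold; lists of mast cells, ileum markers and T cell receptor loci are not drawn. The 10 lymphocyte genes have a median of 0.65, red blood cell genes of 1.23, plasma cell genes of 1.18, B cell and follicle genes of -0.42, and epithelial genes of -0.03.

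Markers of other cell types in the tissue also differed between the pools. The natural killer cell markers Ncr1, Klrb1c and Klra8 stood at 0.187 to 0.264 units in wild type and 0.0904 to 0.123 in TLR4ΔIEC, and none was missing from either column. Of the whole list of 10 natural killer and innate lymphoid genes, 6 were above 0, with a median of 0.29 and sums of 49.4 and 65.8 units. Most of both sums came from Tyrobp (23.3 and 29.0 units), Fcer1g (15.1 and 19.5 units) and Kit (6.82 and 11.6 units). The 4 genes below 0 were the 3 markers above and Klri2 (0.183 and 0.0751 units), so the sums do not describe those markers. Of 15 B cell and follicle genes, 13 were below 0, 4 of them by 2-fold or more, and 1 was higher by 2-fold, and they summed to 107 units in the wild type pool and 85.3 in the TLR4ΔIEC pool. Among the lower genes were the B cell surface genes Ms4a1 (-1.38) and Fcer2a (-1.05), named after their values were seen, and the higher gene, named likewise, was the immunoglobulin M receptor Faim3 (1.56). The follicle chemokine Cxcl13 was at 8.88 and 2.45 units (-1.52), while the best covered B cell genes, Cd79a (-0.06) and Cd79b (0.05), were nearly level. Plasma cell genes were higher, with 8 of 8 above 0, 5 at least 2-fold higher and sums of 421 and 1032 units. These were the joining chain Igj (202 and 703 units, 1.79), the survival receptor Tnfrsf17 (1.79), the secretory pathway genes Derl3 (1.41) and Mzb1 (1.16), and Fkbp11 (1.20), whose mean was under 5 units. Igj made up most of the sum in TLR4ΔIEC. Xbp1 (0.50) and Sdc1 (0.14), also among the 4 best covered of that list, were under 2-fold. Macrophage and dendritic cell genes were above 0 for 11 of 12, with sums of 929 and 1723 units, and 1 was higher by 2-fold, the lysozyme Lyz2 (691 and 1389.9 units, 1.01). Lyz2 made up most of both sums. The next best covered, C1qb (0.71), C1qa (-0.08) and C1qc (0.39), were under 2-fold. Red blood cell genes were above 0 for 7 of 7, 6 of them at least 2-fold higher. Their median of 1.23 was above that of the 10 genes, and they summed to 259 and 594 units. Several of these are near-identical globin copies. Hbb-b2 and Hbb-bt had the same coverage (18.0 and 46.5), and Hbb-b1 with Hbb-bs and Hba-a1 with Hba-a2 were nearly equal. The same signal can thus be counted more than once, so the red blood cell counts and sums are of entries, not of separate genes. General leukocyte genes were above 0 for 11 of 13, with a median of 0.35 and sums of 2380.3 and 3088 units. Most of both sums came from 1 gene, Tmsb4x (2174 and 2861 units). The part that these cell types and blood have in the values of the 10 genes was not tested.

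Relative to a general leukocyte marker, the CD3 mean was 0.942 of the level of Ptprc in wild type and 1.25 in TLR4ΔIEC, and relative to the B cell gene Cd79b it was 0.247 and 0.412. Epithelial genes were level as a list, with 4 of 11 above 0 and a median of -0.03, which lay between 0.04 and 0.08 under 4 other scalings (the total, the total leaving out the 50 highest genes, quantile normalization and none). Epcam was at 1001 and 757 units (-0.40). The ileal bile acid binding protein Fabp6 was at 15350.2 and 13628 units and the ileal bile acid transporter Slc10a2 at 93.0 and 93.7, so both pools carried markers of ileum. Of 8 ileum markers 1 was above 0, and the median was -0.37. Tlr4 itself had 1.98 reads per base in wild type and 1.60 in the knockout pool (log2 ratio -0.27), a value of whole tissue and the whole transcript that checks the genotype labels only weakly.

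The depth behind the members' values could be read from the deposited averages, 99.95% of which in each column were a whole number of bases divided by a whole length within a relative tolerance of 1e-11. Both averages of Gzma, Gzmb, Cd3e and Cd2 were taken over 1 length. For the other genes, multiples of the recovered lengths near the annotated length were searched for pairs differing by the size of 1 annotated exon. A pair was found for 4 genes, but it was selected for, so these lengths are not settled. The recovered lengths were 93 bases for Cd3g and 1565 for Cd8a in TLR4ΔIEC, and 133 for Cd3d in wild type. The matched differences were 24 bases in Cd3g and 111 bases in Cd8a, both shorter in wild type. They were 44 bases in Cd3d and 85 bases in Lck, both shorter in TLR4ΔIEC. With its match, Cd3g had 11272 bases of reads over 999 in wild type and 22396 over 1023 in TLR4ΔIEC. Divided by the longer length in both pools, the unscaled ratio of Cd3g was 1.99 in place of 1.94, that of Cd8a 1.62 in place of 1.56, that of Cd3d 1.49 in place of 1.54, and that of Lck 2.36 in place of 2.45. For Cd8b1 and Itgae no such match was found. The precision of the weaker genes is limited by these depths, and read numbers are not given because the read length is not known.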

How the data were processed

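Per the labels, ileal RNA of 3 wild type and 3 TLR4ΔIEC mice was made into Ion Torrent whole-transcriptome libraries with strand-specific reverse transcription. The submitters' processing notes name TopHat2 2.0.10, Bowtie2 2.1.0 and mm10 without roles. The deposited signal is, per the file headers, an average coverage for each RefSeq transcript entry, with a column for each genotype, and it was not scaled to library size as far as the values show. The sum was 699800 over 22724 entries in wild type and 698473 over 22687 in TLR4ΔIEC.

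The 22001 entries in both columns gave 21950 symbols, and the entry with the highest mean stood for a repeated symbol. Columns were scaled by the median of ratios (factor 1.05). The pseudocount was 1 unit and the filter a mean of 5 units, equal to 3.41 reads per base in wild type and 3.58 in TLR4ΔIEC. A gene was called at 2-fold on values in units plus 1. With 1 pooled column per group no test was run. Entries in 1 column only (723 and 686) were left out, not taken as 0. A planned display of protein sequences was not made. Lengths behind averages were recovered as the smallest whole-number fraction (tolerance 1e-11, up to 20000 bases). The true length can be a multiple of that, so multiples were allowed when lengths of the 2 columns were compared. Gene positions come from GENCODE vM21, on GRCm38 (mm10).

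The members and lists were chosen with earlier results of these data known. Named genes were the 10 members, Tlr4, and of each list the 4 best covered and up to 6 past 2-fold with at least 5 units; genes chosen otherwise are marked, and a few list genes are not reported here. The steps were tested on simulated data. Python 3.11.15, numpy 2.4.6, pandas 2.3.3 and matplotlib 3.10.9 were used.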

Additional observations from a re-analysis of the deposited data

How the results depend on the processing

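Alternatives were 5 other scalings, pseudocounts of 0.1 and 5 units, no filter or filters at 1 and 20 units, the mean over entries, removal of a trend on GC content and length, and a same-length rule. That rule kept genes whose 2 averages could both rest on 1 length of up to 20000 bases. The length was not checked against the transcript, so some genes it kept may not share a length. Each of the 10 genes kept its sign in every setting that included it: Gzma ranged from 1.63 to 1.85, Gzmb from 0.57 to 0.81, Cd3g from 0.72 to 0.95, Cd3e from 0.55 to 0.92, Cd2 from -0.19 to -0.03. Lck was under 2-fold with a pseudocount of 5 units (0.69), which left 1 of the 10 at least 2-fold higher. The filter at 20 units kept Gzma and Cd3g, of which 2 were above 0 and 1 was 2-fold higher (median 1.30). The same-length rule kept 4 genes, with 3 above 0 and 1 at least 2-fold higher, and put the difference between Gzmb and the CD3 ratio at -0.11, that ratio then being Cd3e alone. The difference between Cd8b1 and Cd8a was 0.26 with a pseudocount of 0.1, -0.081 with 5 and 0.19 with the GC and length trend removed. Over all genes, the numbers higher and lower by 2-fold were 115 and 248, and became 65 and 146 with a pseudocount of 5, 222 and 395 with no filter, 206 and 380 with a filter at 1 unit, and 58 and 130 at 20 units. List medians that changed sign were those of the epithelium (0.076 when totals leaving out the 50 highest genes set the scale, 0.055 with quantile normalization, 0.042 with the total and 0.040 with none), of intraepithelial lymphocyte regulators (-0.59 at 20 units) and of CD4 and regulatory T cells (-0.55 at 20 units and -0.55 under the same-length rule). Medians that kept their sign and moved by over 1.5 times ranged from -0.80 to -0.0026 for B cells and follicles, 0.06 to 0.35 for natural killer and innate lymphoid cells, 0.14 to 0.46 for cytotoxic effectors, 0.17 to 0.41 for T cell receptor signalling, 0.07 to 0.33 for homing, -0.54 to -0.14 for gamma-delta genes, 0.37 to 0.71 for macrophages, 0.76 to 1.37 for plasma cells, 0.21 to 0.44 for leukocytes, -0.56 to -0.26 for ileum markers and 0.01 to 0.34 for mast cells and granulocytes. The difference between Gzmb and the CD3 ratio ranged from -0.11 to 0.05 and changed sign in 5 settings. No paired analysis was possible because each group has 1 pooled column and the groups share no replicate number. For the same reason no mouse could be left out.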

Other observations

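Mast cell genes, which were listed because some share a granule biology with cytotoxic cells, were near the lower end of the measured range in wild type and included some of the widest ratios. The mucosal mast cell proteases Mcpt1 and Mcpt2 were at 1.01 and 0.197 units in wild type and at 3.08 and 4.63 units in TLR4ΔIEC. The receptor chain Fcer1a, picked with its value known, was at 0.0498 and 1.41 units, while the connective tissue protease Mcpt4 (0.161 and 0.347 units) and Cma1 (0.109 and 0.138 units) stayed weak in both. The mast cell genes Tpsb2 (0.476 and 0.223 units) and Ms4a2 (0.142 and 0.121 units) were lower. Of the 12 measured genes of mast cells and granulocytes, 8 were above 0 and 4 below, the median log2 ratio was 0.04, and 0 reached a mean of 5 units. S100a9, a neutrophil protein, was lower in TLR4ΔIEC (3.57 and 0.595 units), and its partner S100a8 was listed in the wild type column alone, at a coverage of 0.656.

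In the list of helper and regulatory T cell genes, 9 of 14 were above 0 and 5 below, 0 passed 2-fold with 1 added, and the median was 0.14. Of the 14, 2 reached a mean of 5 units, so the added 1 understates most of these differences. In units without the added 1, Ctla4 was 2.98-fold and Ikzf2 2.96-fold higher, both named after their values were seen. No gene of the list was 2-fold lower in those units. The list can therefore not be set apart from the 10 genes by its median. The best covered gene of the list, Zbtb7b (60.2 and 39.3 units), is also expressed outside T cells and overlaps an antisense gene model.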
